A study of Mus musculus with 4 samples.

Results

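The cells described here are macrophages of mouse synovium, the soft tissue that lines the joints, that carried RNA of Trem2, the gene for a lipid-sensing receptor of the myeloid lineage. They were chosen from the raw counts of unique molecular identifiers (UMIs, counted mRNA molecules) in each barcode of both synovium libraries. A barcode was kept with at least 500 UMIs, of which at most 20% were mitochondrial. A kept barcode was gated as a macrophage with at least 3 UMIs of the macrophage genes Csf1r, Cd68 and Adgre1 together and at most 5 UMIs of the collagen genes Col1a1 and Col1a2 together. Barcodes with at least 5 UMIs of Acp5 and also at least 5 of Ctsk, both genes of bone-resorbing osteoclasts, were set aside as osteoclast-like cells. Gated macrophages with at least 2 Trem2 UMIs were the Trem2 macrophages, and 682 of the 30943 barcodes in the series met this rule. The 8 genes named in the rule chose the cells, so their values are given as a description.

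The study compared mice that express human TNF from a transgene with their littermates, to follow arthritis and lung disease, and complement in both, by single-cell RNA sequencing. TNF- denotes the littermate control mice without the transgene, and TNF+ denotes the hTNFtg mice, in which human TNF is overproduced and an erosive arthritis develops. Both genotypes were female, 4 months old and on the C57BL/6 background, and neither received an agent. Each library was a pool of several mice (5 to 10 for synovium and 3 to 5 for lung), and there was 1 library per genotype and tissue. No replicate spread could therefore be measured, and no p-values are given. The 95% intervals are exact and cover the error of counting cells or UMIs only, so a genotype difference here is a difference between a pair of libraries. Levels are given as CPM, the UMIs of a gene scaled to 1000000 UMIs of the set of cells. The count tables held mouse genes only, and the transgene was not analysed here, so Tnf below is the mouse gene.

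TREM2 sits at the surface of tissue macrophages, microglia and osteoclast precursors and binds phospholipids, lipoproteins and debris of dying cells. It has almost no signalling tail of its own and works through the adaptor TYROBP (DAP12), which recruits the kinase SYK. Macrophages that express it in fat, atherosclerotic plaques and inflamed tissue often carry genes of lipid uptake and lysosomal breakdown. In joints, macrophages that express Trem2 have been described in the synovial lining, where they form a barrier to the joint space.

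Besides Trem2, 5 marker genes had been set for these cells. Spp1 encodes the secreted glycoprotein osteopontin, Cxcl2 a neutrophil-attracting chemokine, Clec4e the C-type lectin receptor Mincle, Lgals3 the galactose-binding lectin galectin-3, and Cd14 a co-receptor for bacterial lipopolysaccharide. The 250 bases before the annotated transcription start of Trem2 and of 4 of these markers are shown because these genes define the cells and were compared throughout. The sequences are from RefSeq (GRCm38.p6), 5′ to 3′ on the strand of the gene, in lower case with matches to any of 7 motifs in capitals. The motifs were NF-kB and CArG sites, AP-1 (TGANTCA), C/EBP (TTGCNNAA), the E-box (CACGTG) and the antioxidant response element (TGACNNNGC), with the interferon-stimulated response element, searched on both strands. The regions are chr17:48346151-48346400, forward strand; chr5:104434861-104435110, forward strand (the first of 2 start sites); chr5:90903649-90903898, forward strand; chr6:123289872-123290121, reverse strand; and chr14:47373610-47373859, forward strand.
Trem2: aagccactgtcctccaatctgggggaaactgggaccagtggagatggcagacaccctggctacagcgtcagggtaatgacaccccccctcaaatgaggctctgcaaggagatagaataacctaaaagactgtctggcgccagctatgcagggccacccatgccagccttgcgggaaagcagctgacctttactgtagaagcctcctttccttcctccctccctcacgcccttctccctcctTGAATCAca
Spp1: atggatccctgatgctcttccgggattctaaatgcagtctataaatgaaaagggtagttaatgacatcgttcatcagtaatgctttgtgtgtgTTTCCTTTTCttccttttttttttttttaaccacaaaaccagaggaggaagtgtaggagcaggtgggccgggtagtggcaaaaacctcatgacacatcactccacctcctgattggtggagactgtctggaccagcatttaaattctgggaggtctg
Cxcl2: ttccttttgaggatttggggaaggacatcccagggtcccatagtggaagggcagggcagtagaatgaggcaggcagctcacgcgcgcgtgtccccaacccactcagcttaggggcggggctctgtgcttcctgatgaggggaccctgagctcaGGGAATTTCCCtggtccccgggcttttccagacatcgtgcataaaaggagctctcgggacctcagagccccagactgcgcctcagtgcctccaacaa
Clec4e: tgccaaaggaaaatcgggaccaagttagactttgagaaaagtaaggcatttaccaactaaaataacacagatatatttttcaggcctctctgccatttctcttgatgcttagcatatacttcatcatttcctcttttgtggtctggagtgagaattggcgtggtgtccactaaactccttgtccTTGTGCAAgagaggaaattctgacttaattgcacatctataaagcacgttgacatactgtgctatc
Lgals3: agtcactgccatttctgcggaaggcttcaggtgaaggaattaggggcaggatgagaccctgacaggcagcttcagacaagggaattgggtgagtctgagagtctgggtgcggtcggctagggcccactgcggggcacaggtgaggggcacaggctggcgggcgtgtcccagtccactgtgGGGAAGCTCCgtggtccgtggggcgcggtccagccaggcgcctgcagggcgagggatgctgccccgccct
Trem2 held an AP-1 match 9 bases before the start, Spp1 an interferon-stimulated response element at 157 bases, Clec4e a C/EBP match at 66 bases and Lgals3 an NF-kB match at 70 bases. Cxcl2 held overlapping NF-kB matches at 97 and 96 bases. Among 27018 genes with a promoter in the same table, 8.24% held an NF-kB match, 7.82% an AP-1 match, 10.8% a C/EBP match and 3.46% an interferon-stimulated response element. A match describes letters in the window and not binding.

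In synovium, 6638 of 6899 TNF- barcodes and 3498 of 4246 TNF+ barcodes were kept, with medians of 13057 and 10204 UMIs per kept barcode. None of the barcodes above the mitochondrial limit met both the gene limits of the macrophage gate and the minimum of 2 Trem2 UMIs. The Trem2 macrophages were deeper than these medians and alike between genotypes, with median UMIs of 17585 in TNF- and 17269 in TNF+ and median mitochondrial shares of 1.82% and 1.79%. All 12 genes of a macrophage marker list were detected in them in both libraries, at summed levels of 13805 CPM in TNF- and 32949 in TNF+. Defining T cell genes summed to 11.5 CPM in TNF- and 3.94 in TNF+, and B cell genes to 17.2 and 5.40. Endothelial genes reached 178 CPM in TNF- against 23.3 in TNF+, dendritic cell genes 198 against 9.59, and fibroblast genes 123 against 53.3. There were 5 TNF+ Trem2 macrophages, and 0 TNF- ones, that had a barcode also found in another library.

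The Trem2 macrophages made up 57 of the 6638 kept TNF- barcodes (0.859%, 95% interval 0.651 to 1.11) and 625 of the 3498 kept TNF+ barcodes (17.9%, 16.6 to 19.2). Within the gated macrophages they were 57 of 560 (10.2%, 7.80 to 13) in TNF- and 625 of 1025 (61.0%, 57.9 to 64.0) in TNF+. In TNF-, 454 gated macrophages (81.1%) had no Trem2 UMI and 49 had 1, whereas in TNF+ 304 (29.7%) had none and 96 had 1. The cells with no Trem2 UMI are called Trem2-0 macrophages below. Their median depth was 19226 UMIs in TNF- and 9086.5 in TNF+, so in TNF+ they were the shallower set. Dendritic cell genes summed to 754 CPM in the TNF- and 178 in the TNF+ Trem2-0 macrophages, with medians of 8.5 and 0 UMIs per cell. The macrophage marker list summed to 6110 CPM in these TNF- cells and 13679 in the TNF+ ones. The gate thus also took in cells with dendritic cell genes, more so in TNF-, and their part in the shares was not tested.

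Trem2 RNA per cell also differed between the libraries. A TNF- Trem2 macrophage held a median of 3 Trem2 UMIs (highest 22) and a TNF+ one a median of 7 (highest 40). Cells at the 2-UMI limit were 22 of 57 in TNF- (38.6%) and 74 of 625 in TNF+ (11.8%), and cells with at least 5 were 15 (26.3%) and 424 (67.8%). The summed level was 168 CPM in TNF- and 435 in TNF+. The Trem2 macrophages held 235 of the 310 Trem2 UMIs of the kept TNF- barcodes (75.8%) and 5076 of the 6287 in TNF+ (80.7%). Osteoclast-like cells, of which there were 0 in TNF- and 83 in TNF+, held a further 962 UMIs in TNF+ (15.3%). No T-like cell carried a Trem2 UMI, at 0 of 93 in TNF- and 0 of 72 in TNF+, which allows shares of up to 3.23% and 4.17% at median depths of 10476 and 6569 UMIs. T-like cells were chosen without any UMI of Csf1r, Cd68 and Adgre1, so T cells that also held RNA of these macrophage genes were left out beforehand. Their shares, here and below, are therefore not a free measure of stray macrophage RNA.

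**Figure D1:**
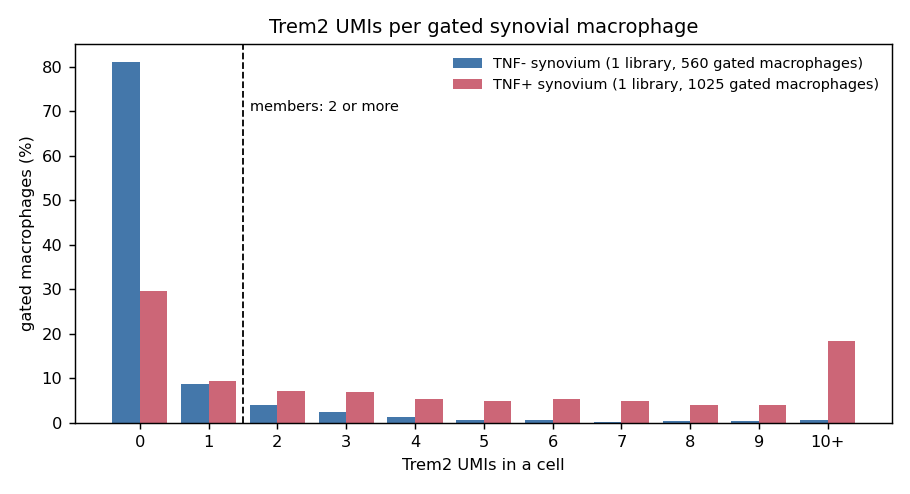
The bars show the percentage of gated synovial macrophages (y axis) with each number of Trem2 UMIs (x axis, 0 to 10 or more) in the TNF- library (560 cells) and the TNF+ library (1025 cells). In TNF-, 81.1% of the cells stand at 0 UMIs, against 29.7% in TNF+, and the TNF+ bars extend to 189 cells with 10 or more UMIs against 3 in TNF-.

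Cells just outside and just inside the limit of 2 UMIs were set side by side. In TNF+, Spp1 stood at 1030.3 CPM in cells with 1 Trem2 UMI and 1659.7 in cells with 2, Cxcl2 at 9167 and 8444, and Lgals3 at 5068 and 5796. In TNF-, Spp1 stood at 47.9 and 10.1 CPM in these classes, Cxcl2 at 3171 and 1836, and Lgals3 at 1539.6 and 1258. Spp1 was thus higher inside the limit in TNF+ and lower inside it in TNF-, where it rested on 40 and 6 UMIs.

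Every marker was higher in TNF+ than in TNF- Trem2 macrophages by summed UMIs. Spp1 differed most, with 30.1 CPM in TNF- and 1497 in TNF+, a 49.8-fold ratio and a log2 ratio of 5.64 (95% interval 5.20 to 6.11). The gene was uneven among TNF+ cells, where the top 10% of cells held 74.1% of its UMIs and the median cell had 0.689 Spp1 UMIs per 10000. At least 1 Spp1 UMI was found in 17.5% of TNF- and 56.5% of TNF+ Trem2 macrophages, and in 5.26% and 36.9% once each cell was thinned to 2000 UMIs. In TNF-, therefore, the marker Spp1 was detected in a minority of the cells. The T-like cells carried a Spp1 UMI in 1.08% (TNF-) and 6.94% (TNF+), and after thinning in 1.08% and 0%.

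Cxcl2 was the most abundant marker, at 3750.4 CPM in TNF- and 11568 in TNF+, a log2 ratio of 1.63 (95% interval 1.59 to 1.67). Clec4e stood at 172 and 1160.4 CPM (2.76, 95% interval 2.57 to 2.95), and it was detected in 43.9% of TNF- and 92.6% of TNF+ cells. Lgals3 stood at 1334 and 5792 CPM, a log2 ratio of 2.12 (95% interval 2.05 to 2.19). Unlike Spp1, Lgals3 was spread over nearly all cells, with 96.5% of TNF- and 100% of TNF+ cells positive and median values of 9.73 and 53.8 UMIs per 10000. Cd14 differed least, at 1445 and 3118 CPM, with a log2 ratio of 1.11 (95% interval 1.04 to 1.17). After thinning to 2000 UMIs, Cxcl2 was found in 64.9% and 85.7% of cells, Clec4e in 21.1% and 70.7%, Lgals3 in 71.9% and 99.5%, and Cd14 in 84.2% and 93.8%. In thinned T-like cells the TNF- and TNF+ shares were 3.23% and 7.25% for Cxcl2 and 22.6% and 33.3% for Lgals3, and no thinned T-like cell had a Clec4e or Cd14 UMI.

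A pair of further genes was followed in these cells. Npy, which encodes the signalling peptide neuropeptide Y, had no UMI in the 57 TNF- cells, which allows a share of up to 5.26%. It was found in 92 of the 625 TNF+ cells (14.7%) at 30.4 CPM, at least 14.2-fold higher against a floor of 3 UMIs over the TNF- cells. St18, which encodes a zinc-finger transcription factor, stood at 20.8 CPM in TNF- and 121 in TNF+, a log2 ratio of 2.55 (95% interval 2.02 to 3.13).

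The markers were also higher in TNF+ outside the Trem2 macrophages. In Trem2-0 macrophages, Spp1 stood at 22.3 CPM in TNF- and 408 in TNF+, and Cxcl2 at 379 and 3607. Clec4e stood at 73.0 and 777, Lgals3 at 1311 and 3186, and Cd14 at 554 and 1962. Over all 12264 genes tested in the Trem2-0 macrophages, 1062 (8.66%) were at least 2-fold higher in TNF+ and 2317 (18.9%) at least 2-fold lower. Within TNF+, Trem2 macrophages exceeded Trem2-0 macrophages most for Spp1, by a log2 ratio of 1.87 (95% interval 1.79 to 1.96), and for Cxcl2, by 1.68, and least for Clec4e, by 0.58. Within TNF-, Cxcl2 stood apart by a log2 ratio of 3.31, whereas the intervals of Spp1 (0.43, 95% interval -0.08 to 0.91) and of Lgals3 (0.03, 95% interval -0.05 to 0.10) included 0.

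**Figure D2:**
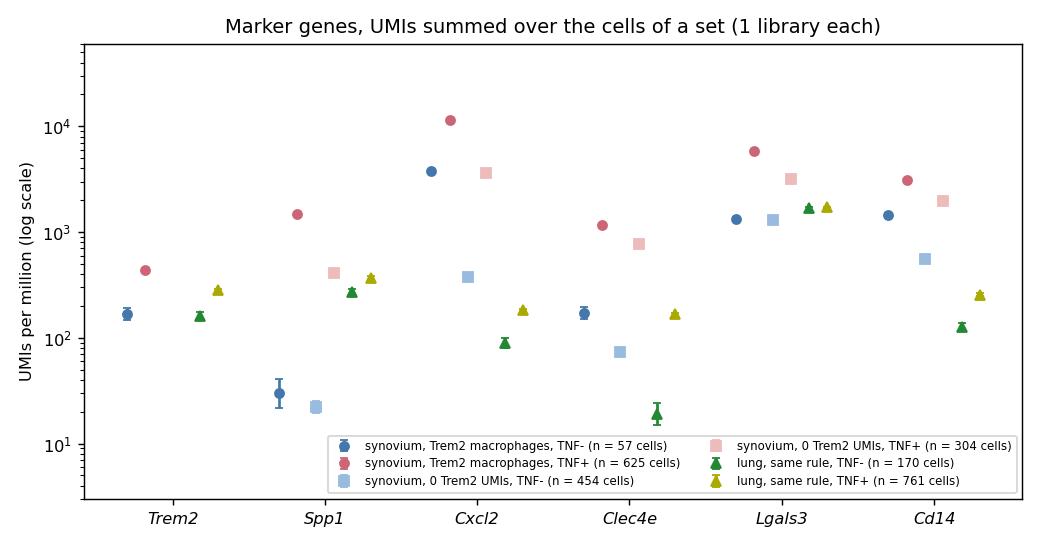
Points show the level of each of the 6 marker genes in CPM (y axis, log scale) in synovial Trem2 macrophages, synovial Trem2-0 macrophages and lung cells that meet the same rule, for TNF- and TNF+. Bars are 95% Poisson intervals. Cxcl2 reaches 11568 in TNF+ synovial Trem2 macrophages and 182 in TNF+ lung cells of the same rule.

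Across the 11324 genes with at least 20 UMIs over both sets, 1037 (9.16%) were at least 2-fold higher in TNF+ than in TNF- Trem2 macrophages and 2621 (23.1%) at least 2-fold lower. The counting interval lay wholly beyond 2-fold for 337 genes (2.98%) and 1357 genes (12%). The median log2 ratio over all genes was -0.24, and ratios below are to be read against it. Of the genes called, 28.3% were higher, and 42.0% were higher (1464 against 2025 lower) once the ratios were centred on that median. The words higher and lower are used below for a difference of at least 2-fold, and paired values give TNF+ first and TNF- second, in CPM.

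The genes with the largest ratios included enzymes of arginine, haem and itaconate metabolism and acute-phase proteins. Arg1, the arginine-degrading enzyme arginase 1, had no UMI in TNF- and 110.0 CPM in 191 TNF+ cells, at least 51.2-fold higher. Inhba, the subunit that forms activin A, was likewise absent from the TNF- counts and stood at 67.8 in TNF+, at least 31.6-fold higher. Orm1, an acute-phase plasma glycoprotein, was at 0 in TNF- and 42.1 in 73 TNF+ cells, and H2-M2, a nonclassical MHC class I gene, at 0 and 54.6 in 63 cells. These genes each had UMIs in a minority of the TNF+ cells. Arg1 was seen in 12.9% of TNF- T-like cells, at 50.5 CPM, so its absence from the 57 TNF- Trem2 macrophages was measured in a library that held Arg1 RNA.

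Hmox1, the haem-degrading enzyme haem oxygenase 1, was carried by nearly every cell and not by a minority. It stood at 3849.5 against 201, a log2 ratio of 4.26 (95% interval 4.09 to 4.43), with UMIs in 98.9% of TNF+ and 73.7% of TNF- cells. Sdc1, the heparan sulfate proteoglycan syndecan-1, stood at 252 against 7.16 (log2 ratio 5.14) and Mmp14, a membrane-bound collagen-cleaving protease, at 339 against 11.5 (4.89). Acod1, which makes the antimicrobial metabolite itaconate, stood at 111 against 3.58 (4.96), and Slpi, a secreted inhibitor of neutrophil proteases, at 411 against 24.3 (4.08). S100a8, a calcium-binding alarmin most abundant in neutrophils, stood at 122 against 4.30 (4.83). Neutrophil markers summed to 153 CPM in TNF+ and 40.8 in TNF- Trem2 macrophages, with Ly6g at 0 in both, and their part in the S100a8 value was not tested. Saa3, an acute-phase apolipoprotein, stood at 88.3 against 0.716, with 1 UMI in TNF- and a log2 ratio of 6.95 (95% interval 4.47 to 12.25), and 32.7% of its TNF+ UMIs came from 1 cell.

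Genes with the lowest ratios included markers of resident and alternatively activated macrophages, and several rested on few cells. Retnla, a secreted resistin-like protein of alternatively activated macrophages, stood at 74.0 against 4079 and was found in 4 of 625 TNF+ and 20 of 57 TNF- cells. Its log2 ratio was -5.78, and 99.7% of its 864 TNF+ UMIs lay in 1 cell. Lyve1, the hyaluronan receptor of a resident macrophage type, stood at 1.28 against 101 (-6.30) and Ccl12, a monocyte-attracting chemokine, at 2.57 against 232 (-6.50), with 46.8% and 87.3% of their TNF- UMIs in 1 cell. Without the top cell of each library, a step chosen after seeing the data, the log2 ratio of Ccl12 was -4.03. Egr3, an early-response transcription factor, stood at 1.11 against 104 (-6.54), Ace, the angiotensin-converting enzyme, at 2.06 against 92.3 (-5.49), and Ccnd2, the cell cycle regulator cyclin D2, at 2.48 against 95.9 (-5.27). Cd209a, a C-type lectin of monocyte-derived and dendritic cells, stood at 3.34 against 120.3 (-5.17).

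Some of these ratios moved with a class of cells that was common in TNF-. Trem2 macrophages with at least 3 UMIs of Retnla, Mgl2 and Cd209a together, genes of alternatively activated or dermal-type macrophages, were 25 of 57 in TNF- (43.9%) and 17 of 625 in TNF+ (2.72%). Without these cells, a step also chosen after seeing the data, the log2 ratio of Dmd, the muscle protein dystrophin, went from -6.57 to -0.40 and that of Gpx3, an extracellular glutathione peroxidase, from -5.05 to -0.11. Cells with at least 2 UMIs of endothelial genes were 15 of 57 in TNF- (26.3%) and 15 of 625 in TNF+ (2.40%), and their part alone was not tested. Leaving out members with at least 2 UMIs of T cell, B cell, endothelial or muscle genes was tried as an alternative. It kept 42 TNF- and 601 TNF+ cells, with 1157 genes higher and 2100 lower, and its single-gene ratios are not reported here.

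Components of the TREM2 receptor and its signalling partners differed little. Of 15 genes of the receptor pathway, 1 was higher and 4 were lower, and the median log2 ratio was -0.18, which became 0.07 under median-of-ratios scaling, so the list had no stable direction. Tyrobp, the adaptor of TREM2, stood at 1588 against 1243 (0.35, 95% interval 0.28 to 0.43), and Syk, the kinase it recruits, at 237 against 205 (0.21, 95% interval 0.03 to 0.39). Pik3cd, a catalytic subunit of phosphoinositide 3-kinase, was lower at 8.74 against 41.5 (-2.25). The 5 Fc gamma receptor genes, which bind antibody and share signalling steps with TREM2, had a median of 0.05 that became -0.30 with a Trem2 minimum of 1 UMI, with 0 higher and 1 lower.

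C-type lectins and other pattern receptors were more often higher than lower, with 7 of 16 higher, 2 lower and a median log2 ratio of 0.84. Clec4n (Dectin-2), a receptor for fungal mannans, stood at 349.5 against 21.5 (4.02), and Clec4d, a partner of Mincle encoded in the same gene cluster, at 747 against 80.2 (3.22). Fpr2, a receptor for formylated peptides, stood at 45.0 against 4.30 (3.39). Nod2, an intracellular sensor of bacterial cell walls, was lower at 7.80 against 25.1 (-1.68).

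Lipid and lysosome genes associated with Trem2 macrophages were mostly higher, with 14 of the 23 that passed the UMI minimum higher, 2 lower and a median log2 ratio of 1.20, and the median stayed between 0.68 and 1.73 under the alternatives tried. The genotype difference was alike in Trem2-0 macrophages, with 13 of 24 higher, 2 lower and a median of 1.18. Between Trem2 and Trem2-0 macrophages of TNF+, 6 of 23 were higher and 4 lower in the former, with a median of 0.67. The same comparison in TNF- had 6 of 24 higher, 0 lower and a median of 0.68. Gpnmb, a lysosomal glycoprotein of lipid-laden macrophages, stood at 46.2 against 4.30 (3.43), and Ctsl, the lysosomal protease cathepsin L, at 750.2 against 111 (2.76). Fabp5, an intracellular fatty acid carrier, stood at 395 against 60.8 (2.70), and Apoe, the lipid-transporting ligand of TREM2, at 2173 against 1036 (1.07). Apoe was uneven, with the top 10% of TNF+ cells holding 68.8% of its UMIs and median cells alike at 1.34 and 1.31 UMIs per 10000. The 2 members that were lower also handle fatty acids: Lpl, which releases them from triglycerides, stood at 43.3 against 311 (-2.84), and Fabp4, a carrier of fat cells, endothelium and some macrophages, at 154 against 356 (-1.21).

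Complement, which the study followed in joint and lung, was mixed. Of the 14 complement genes over the minimum, 2 were higher and 3 lower, and the median was -0.61. C3, the central component, stood at 243 against 53.7 (2.18, 95% interval 1.85 to 2.53), and Cfb, factor B of the alternative pathway, at 20.8 against 1.43 with 2 UMIs in TNF- (3.86, 95% interval 1.99 to 6.92). The C1q chains, which start the classical pathway, did not reach 2-fold, with C1qa at 597 against 1057 (-0.82), C1qb at -0.96 and C1qc at -0.69. C1qa was detected in 66.7% of TNF- and 41.4% of TNF+ cells, and in 63.2% and 29.5% after thinning. Serping1, the C1 inhibitor, stood at 1.37 against 20.04 (-3.87). The receptor genes C5ar1 and C3ar1 for the anaphylatoxins C5a and C3a stood at log2 ratios of -0.52 and -0.25.

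Cytokine and chemokine genes were mixed. Of 28 genes, 6 were higher and 12 lower, with a median of -0.57 that became -0.05 with cells thinned to 2000 UMIs. Neutrophil-attracting CXC chemokines were among the higher genes, with Cxcl3 at 266 against 19.3 (3.78) and Cxcl1 at 1286 against 493 (1.38). Chemokines that attract monocytes and T cells were among the lower ones, with Ccl2 at 90.8 against 1115 (-3.62), Ccl4 at 91.6 against 1539.8 (-4.07) and Ccl7 at 31.6 against 464 (-3.88). Cxcl10, an interferon-induced attractant of T cells, stood at 14.1 against 198 (-3.81), whereas Ccl8, another monocyte attractant, went the other way at 35.6 against 1.43, with 2 UMIs in TNF- (4.64, 95% interval 2.78 to 7.69). The mouse Tnf gene was lower in TNF+, at 110.1 against 233 (-1.08, 95% interval -1.26 to -0.90), though by under 2-fold relative to the all-gene median, and Il6 was lower at 7.37 against 44.4 (-2.59), whereas Il1b did not reach 2-fold at 1272 against 795 (0.68). Of 20 NF-kB subunits, feedback inhibitors and targets, 3 were higher and 5 lower, with a median of -0.47. Among them Sod2, a mitochondrial antioxidant enzyme induced through NF-kB, stood at 829 against 169.7 (2.29), Nfkbia, the inhibitor IkB-alpha, at 659 against 771 (-0.23), and the feedback inhibitor Tnip3 at 180.5 against 1059 (-2.55).

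Iron, haem and antioxidant genes had the highest median of the 18 lists, 2.36, with 11 of 14 higher and 1 lower. The median stayed between 1.71 and 2.61 under the alternatives. With a Trem2 minimum of 3 UMIs it was 1.71, below the 1.76 of glycolysis genes. In Trem2-0 macrophages 12 of 14 were higher in TNF+ and 2 lower, with a median of 2.64. Between Trem2 and Trem2-0 macrophages of TNF+, 2 of 14 were higher and 1 lower in the former, with a median of -0.31. Besides Hmox1, Fth1, the heavy chain of the iron store ferritin, stood at 33303 against 5997 (2.47) and Prdx1, a peroxide-removing enzyme, at 3455 against 410.2 (3.07). Gclm, a subunit of the enzyme that starts glutathione synthesis, stood at 412 against 43.0 (3.26), and Slc7a11, the cystine transporter that feeds it, at 1053 against 159.6 (2.72). The metal-binding Mt2 was the member that was lower, at 136 against 397 (-1.54). Of the 12 list members with a promoter in the table, 4 held an antioxidant response element, against 11.5% of all genes.

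Glycolysis and hypoxia genes followed, with 19 of 23 higher, 0 lower and a median of 1.88, which stayed between 1.19 and 2.13 under the alternatives. Vegfa, the vascular growth factor, stood at 304 against 30.1 (3.34), and Pgam1, a glycolytic mutase, at 755 against 92.3 (3.03). Bnip3, a mitochondrial protein of hypoxic cells, stood at 151 against 6.44 (4.56), Ldha, which forms lactate, at 857 against 194 (2.14) and Slc2a1, the glucose transporter GLUT1, at 147 against 57.3 (1.36). Pfkp, the platelet form of phosphofructokinase, had the smallest ratio at 109.8 against 173 (-0.66).

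The core letters ACGTG of the hypoxia response element were found within 250 bases of the start in 13 of the 21 genes of this list with a promoter in the table, against 18.5% of all genes. Those genes were Slc2a1, Hk2, Aldoa, Pgk1, Pgam1, Pkm, Ldha, Slc16a3, Vegfa, Bnip3, Egln3, Hilpda and Hif1a. The regions of 3 of them are shown with the core in capitals on either strand, since these genes, all higher in TNF+, carry the core near their start: chr7:138909507-138909756, reverse strand; chr4:119108495-119108744, forward strand; and chr7:46845554-46845803, forward strand (the first of 2 start sites). The E-box CACGTG contains the core, and where the core is read on both strands the matches overlap.
Bnip3: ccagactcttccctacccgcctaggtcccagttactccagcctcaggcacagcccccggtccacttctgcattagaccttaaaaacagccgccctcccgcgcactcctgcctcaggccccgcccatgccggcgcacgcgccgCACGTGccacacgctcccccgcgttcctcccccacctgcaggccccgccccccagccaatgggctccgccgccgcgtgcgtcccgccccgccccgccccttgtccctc
Slc2a1: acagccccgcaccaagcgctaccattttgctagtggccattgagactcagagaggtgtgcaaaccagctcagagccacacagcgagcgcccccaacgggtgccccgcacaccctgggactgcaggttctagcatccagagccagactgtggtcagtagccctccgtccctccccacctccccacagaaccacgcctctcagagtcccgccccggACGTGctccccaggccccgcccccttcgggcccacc
Ldha: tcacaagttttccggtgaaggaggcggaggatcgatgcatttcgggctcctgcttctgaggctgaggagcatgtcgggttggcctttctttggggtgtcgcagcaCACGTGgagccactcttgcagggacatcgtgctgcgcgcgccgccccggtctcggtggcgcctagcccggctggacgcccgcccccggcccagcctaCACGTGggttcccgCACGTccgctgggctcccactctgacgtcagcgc
Bnip3 held the core 108 and 107 bases before the start on opposite strands, Slc2a1 once at 36 bases, and Ldha at 145 and 144, at 48 and 47, and at 34 bases. The 19 higher members were called from RNA counts alone, and nothing in the counts measures binding to these letters.

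Interferon-stimulated genes moved in the other direction, with 0 of 13 higher, 10 lower and a median of -1.84. The median was -1.17 with cells thinned to 2000 UMIs and -1.23 without members that held other cell types' genes. Ifitm3, an antiviral membrane protein, stood at 151 against 1004 (-2.73). Isg15, a ubiquitin-like modifier, stood at 52.8 against 109 (-1.04), under 2-fold relative to the all-gene median. Of the 11 list members with a promoter in the table, 6 held the interferon-stimulated response element, against 3.46% of all genes. The Isg15 region (chr4:156200819-156201068, reverse strand) held overlapping matches at 78, 72 and 66 bases, shown in capitals.
Isg15: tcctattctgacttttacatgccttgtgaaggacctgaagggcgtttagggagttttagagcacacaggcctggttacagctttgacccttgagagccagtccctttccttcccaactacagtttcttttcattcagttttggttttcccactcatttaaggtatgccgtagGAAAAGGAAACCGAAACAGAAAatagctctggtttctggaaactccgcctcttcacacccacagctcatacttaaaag
In the same cells Spp1, with 1 such match in its window, was higher in TNF+.

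MHC class II genes, which present antigen to T cells, were lower throughout, with 9 of the 9 over the minimum lower and a median of -1.65. Cd74, the invariant chain, stood at 4206 against 11183 (-1.41), H2-Aa, an alpha chain, at 1616 against 3563 (-1.14) and Ciita, the master regulator of the class, at 3.60 against 47.2 (-3.71). Without the cells that held Retnla, Mgl2 and Cd209a, the median was -0.25, so the size of this fall moved with that class of cells.

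Tissue-resident and alternatively activated macrophage genes had the lowest median as summed, -2.37, with 1 of 17 higher and 10 lower. That median was -0.59 with cells thinned to 2000 UMIs, where lining genes (-1.89), immediate-early genes (-1.80) and monocyte genes (-1.65) stood lower, and -1.16 without the cells that held Retnla, Mgl2 and Cd209a. Mrc1, the mannose receptor, stood at 86.5 against 447 (-2.37) and Cd163, the haemoglobin scavenger receptor, at 7.37 against 103 (-3.81), while Folr2, a folate receptor of resident macrophages, stood at 24.7 against 26.5 (-0.10). Of 10 genes of synovial lining macrophages, 0 were higher and 6 lower, with a median of -1.32. Cx3cr1, the fractalkine receptor of the lining cells, stood at 50.5 against 191 (-1.92) and Axl, a receptor for apoptotic cells, at 12.3 against 66.6 (-2.44).

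Monocyte genes were mostly lower, at 11 of 16 with 4 higher and a median of -2.03. Ccr2, the receptor that draws monocytes into tissue, stood at 62.9 against 346 (-2.46) and Plac8, a gene of circulating monocytes, at 20.5 against 505 (-4.63). The 4 higher members were S100a4, Fn1, Vcan and S100a6. Fn1, the matrix protein fibronectin, stood at 1476 against 534 (1.47) and S100a4, a calcium-binding protein of motile cells, at 5504 against 1995 (1.46). A subgroup of 22 Trem2 macrophages, described below as subgroup 7, held 684 Plac8 UMIs and 121 Ace UMIs. It took in 21.1% of TNF- and 1.6% of TNF+ Trem2 macrophages. Its part in the ratios of this list and of Ace was not tested.

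Matrix proteases and their inhibitors were mixed, with 8 of 17 higher, 4 lower and a median of 0.87. Mmp12, the macrophage elastase, stood at 132 against 10.7 (3.62) and Timp1, an inhibitor of metalloproteinases, at 39.9 against 5.73 (2.80), while the related inhibitor Timp3 was lower at 7.45 against 68.7 (-3.20). Of 12 osteoclast genes over the minimum, 5 were higher and 2 lower, and the median of 0.26 became -0.09 with cells thinned to 2000 UMIs. Src, a kinase needed for bone resorption, stood at 32.0 against 2.86 (3.48), and Atp6v0d2, a proton pump subunit of fusing osteoclast precursors, at 15.1 against 0.716 with 1 UMI in TNF- (4.40, 95% interval 1.90 to 9.71). Cells with at least 5 UMIs of either Acp5 or Ctsk were 0 of 57 in TNF- and 71 of 625 in TNF+ (11.4%). Cell cycle genes had 0 of 16 higher, 4 lower and a median of -0.63, which became 0.76 with a Trem2 minimum of 3 UMIs and 0.53 under the thinned Trem2 rule.

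Immediate-early and dissociation-induced genes, which respond within minutes to stimulation and also to the digestion of tissue, were lower in 14 of 16 cases with 0 higher and a median of -1.88. Egr1 stood at 29.0 against 603 (-4.38) and Fos at 358 against 1278 (-1.83), both transcription factors of this response. Ccl2, Ccl4 and Cxcl10 were lower in the same library, and whether handling of the tissue contributed to these values was not tested.

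**Figure D3:**
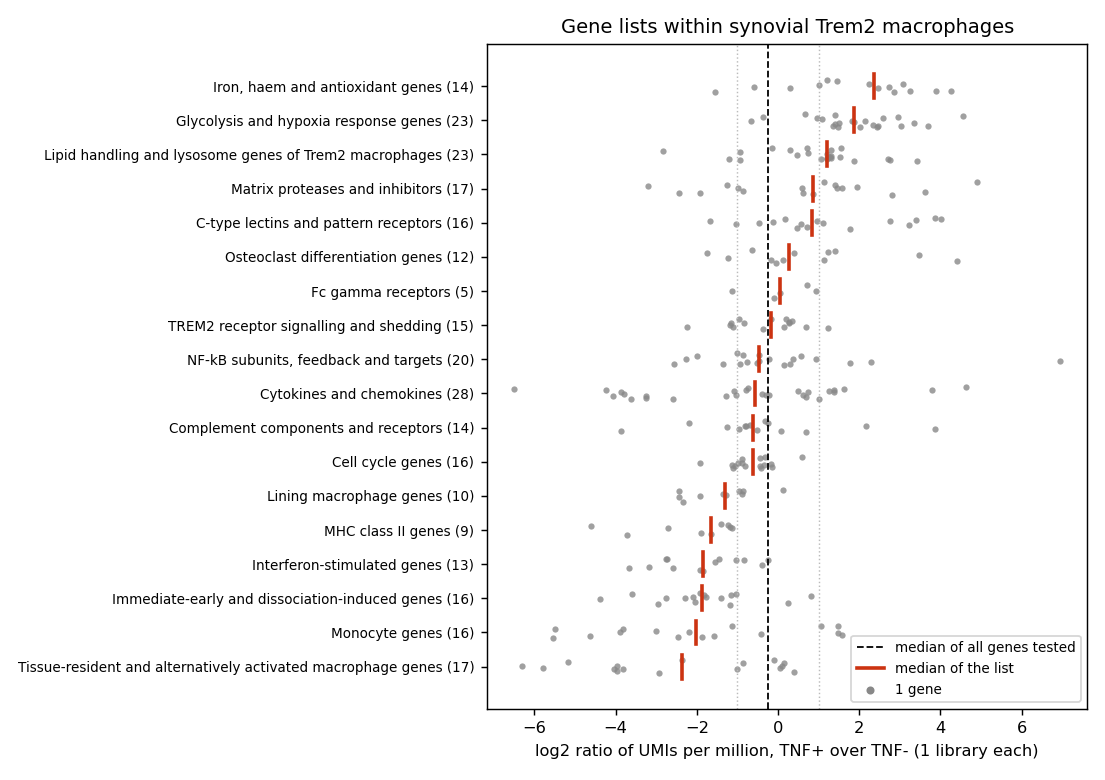
Each dot is a gene of 1 of 18 lists (y axis), placed at its log2 ratio of TNF+ over TNF- Trem2 macrophages (x axis). Red bars mark list medians, the dashed line the all-gene median of -0.24 and dotted lines 2-fold either way. Iron and antioxidant genes (median 2.36) and glycolysis genes (1.88) stand to the right, and resident macrophage genes (-2.37) and monocyte genes (-2.03) to the left.

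Within each genotype, the Trem2 macrophages were compared with the Trem2-0 macrophages of the same library. The choice of cells used Trem2 only, and in TNF+ the Trem2 macrophages were also the deeper set. In TNF+, 997 of 11443 genes (8.71%) were higher in Trem2 macrophages and 1632 (14.3%) lower. In TNF-, 845 of 11972 genes (7.06%) were higher and 738 (6.16%) lower. These counts depended on the cells taken: with 1 Trem2 UMI required after thinning they were 197 higher and 1027 lower in TNF+ and 987 and 1191 in TNF-. In TNF- lower genes outnumbered higher ones, at 1119 against 673, without members that held other cell types' genes, and at 1331 against 510 without the top cell of each gene, a step chosen after seeing the data. In these paragraphs paired values give Trem2 macrophages first and Trem2-0 macrophages second.

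In TNF+, the genes that stood highest in Trem2 macrophages included Pf4, a platelet-type chemokine also made by macrophages, at 717 against 50.7 (3.82), and Igf1, a growth factor of reparative macrophages, at 64.6 against 2.84 (4.51). Ecm1, a secreted matrix protein, stood at 699 against 95.5 (2.87) and was found in 93.9% against 28% of cells. Cxcl1 stood at 1286 against 159.7 (3.01), Fxyd2, a regulator of the sodium pump, at 323 against 21.7 (3.89) and Arg1 at 110.0 against 7.25 (3.92). Genes that stood lower included those of monocytes. Plac8 stood at 20.5 against 437 (-4.42), Ace at 2.06 against 170.1 (-6.37), Cd300e, an activating receptor of nonclassical monocytes, at 0.771 against 61.1 (-6.31), and Pparg, a nuclear receptor for fatty acids, at 9.17 against 174 (-4.25). By list, glycolysis genes had 9 of 23 higher, 0 lower and a median of 0.94, monocyte genes 2 higher and 9 lower of 16 with a median of -2.62, and interferon-stimulated genes 0 higher and 9 lower of 13 with a median of -1.35, beside an all-gene median of -0.09. Neutrophil markers summed to 1284 CPM in the TNF+ Trem2-0 macrophages and 153 in the Trem2 macrophages, and their part in these lists was not tested.

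In TNF-, the genes that stood highest in Trem2 macrophages included chemokines and C1q chains. Ccl12 stood at 232 against 5.02 (5.53), with most of its UMIs in 1 cell, Cxcl1 at 493 against 20.6 (4.58), Ccl7 at 464 against 24.1 (4.27) and Ccl2 at 1115 against 115 (3.27). C1qa stood at 1057 against 101 (3.39), C1qb at 1268 against 127 (3.31) and C3ar1 at 182 against 21.3 (3.09). In TNF+ the C1qa values were 597 against 95.5 (2.64) and those of C3ar1 152 against 36.9 (2.05), so both genes were higher in the Trem2 macrophages of each library. The complement list as a whole had 5 of 14 genes higher and 2 lower in TNF-, with a median of 0.49, and 4 higher and 1 lower in TNF+, with a median of 0.01. Ms4a7, a membrane gene of resident macrophages, was also higher in each, at 104 against 9.62 in TNF- and 304 against 36.5 in TNF+. The lining macrophage list had 8 of 10 genes higher, 0 lower and a median of 1.73 in TNF-, and the cytokine list 15 of 27 higher, 2 lower and a median of 1.21, beside an all-gene median of 0.05. Glycolysis genes, in contrast, had 0 higher and 0 lower of 22 and a median of 0.00. Igkc, an immunoglobulin light chain, was lower in Trem2 macrophages at 38.7 against 1943 (-5.65), as was Cd209a at 120.3 against 546 (-2.18). Of the TNF- Trem2-0 cells, 268 of 454 (59.0%) held at least 3 UMIs of Retnla, Mgl2 and Cd209a together. Dendritic cell genes summed to 754 CPM in the TNF- Trem2-0 macrophages and 198 in the TNF- Trem2 macrophages. The part of such cells in the values was not tested. Endothelial genes summed to 178 CPM in the TNF- Trem2 macrophages and 80.2 in the TNF- Trem2-0 macrophages. Their part in the medians of the lining list and the other lists was not tested.

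The Trem2 macrophages were clustered to describe how they differed among themselves, and 7 subgroups resulted, with 3 and 11 at a lower and a higher resolution. The subgroups are numbered by size and not named as types. Their levels are descriptions, because the clustering was made from the expression of the same cells. Subgroups 1 to 4 held 168, 162, 109 and 83 cells, all from TNF+, so each of them may reflect that library. Subgroup 5 held 44 TNF- and 37 TNF+ cells (77.2% and 5.92% of the members of each library), subgroup 6 held 1 and 56, and subgroup 7 held 12 and 10.

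Subgroup 1 was led by Thbs1, the matrix protein thrombospondin 1, at 2788 CPM. Subgroup 2 was led by H2-M2 (195 CPM) and Orm1 (141), with Lyz1, a lysozyme, at 3647 and Cd74 at 9686. Subgroup 3 held less Cd74, at 496, and of the 7 subgroups had the highest levels of Spp1 (4286), Cxcl2 (26081), Cxcl1 (3971), Npy (98.9) and Arg1 (276). Subgroup 4 carried early-response genes, with Fos at 1429 and Atf3, a stress-response transcription factor, at 1278, and Spp1 at 2055. Both early-response genes were also high in subgroup 5, with Fos at 1053 and Atf3 at 852.

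Subgroup 5 was led by Fabp4, at 1105 CPM in 35.8% of its cells, with chemokine and early-response genes, among them Ccl4 at 1459, Ccl2 at 1006, Ccl7 at 492 and Egr1 at 509. It also carried genes of resident macrophages, with C1qa at 1808, Apoe at 5009.6 and Mrc1 at 603 CPM. Subgroup 6 was led by histone and cell cycle genes, with Top2a, a DNA topoisomerase, at 171 and Mki67, a proliferation marker, at 123. Subgroup 7 carried monocyte genes, with Plac8 at 1745, Ace at 309 and C1qa at 2.55. Trem2, which chose the cells, stood between 186 CPM in subgroup 7 and 489 in subgroup 2.

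**Figure D4:**
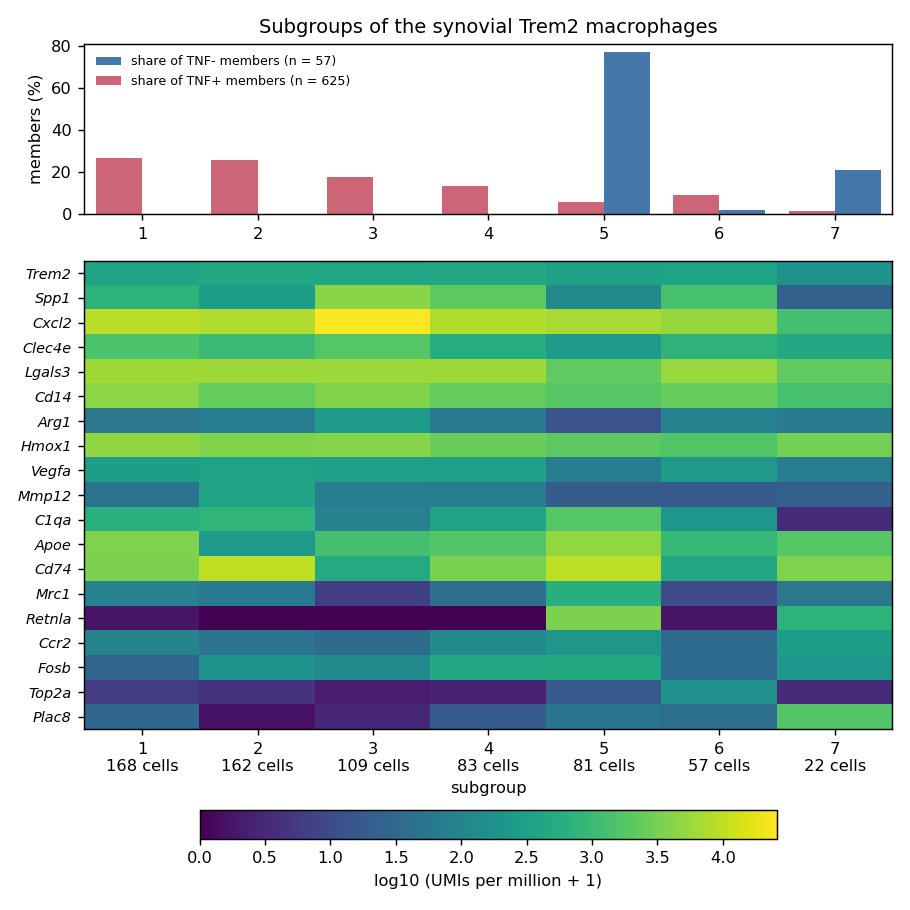
The bars give the share of TNF- and of TNF+ Trem2 macrophages (percent) in each of the 7 subgroups, and the heat map gives log10 of CPM plus 1 for 19 genes in each subgroup. Subgroup 5 holds 77.2% of the TNF- cells, and subgroups 1 to 4 hold TNF+ cells only.

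Since most TNF- cells fell in subgroup 5 and most TNF+ cells in subgroups 1 to 4, the genotypes were also compared within subgroup 5, a step chosen after seeing the data. Of 7507 genes over the minimum, 684 (9.11%) were higher in TNF+ and 1234 (16.4%) lower, with a median of -0.11. The lipid list had 16 of 23 higher, 2 lower and a median of 1.73, the iron list 11 of 13 higher and a median of 2.34, and the glycolysis list 15 of 21 higher, 1 lower and a median of 1.19. All 9 MHC class II genes were lower, with a median of -1.77. The resident macrophage list turned from -2.37 over all members to 0.82 within the subgroup (8 of 16 higher, 5 lower), the complement list from -0.61 to 0.51, and the lining list moved from -1.32 to -0.04. The interferon list moved from -1.84 to -0.58, with 0 of 9 higher and 3 lower, and its member Isg15 stood at 120 CPM in TNF+ against 121 in TNF- (-0.01).

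Named genes within subgroup 5 differed in both directions. Apoe stood at 11763 against 805 CPM (TNF+ against TNF-, log2 ratio 3.87), Gpnmb at 178 against 5.35 (5.05) and Hmox1 at 4865 against 187 (4.70). Spp1 was higher within the subgroup at 276 against 37.4 (2.88), Cxcl2 at 10795 against 4666 (1.21) and Folr2 at 122 against 33.0 (1.88), whereas Cd14, at 2359 against 1592 (0.57), and Mrc1, at 707 against 538 (0.40), did not reach 2-fold. H2-Aa stood at 1482 against 4132 (-1.48) and Ccr2 at 32.9 against 334 (-3.34). Fabp4, lower over all members, was higher within the subgroup at 2193 against 428 (2.36). The 2 lipid list genes lower there were Lpl, at 70.2 against 372 (-2.41), and the integrin gene Itgax, at 7.16 against 33.9 (-2.24). The C1q chains, with negative log2 ratios over all members, had positive ones within the subgroup. C1qa stood at 2598 against 1316 (0.98), C1qb at a log2 ratio of 0.60 and C1qc at 1.29. These values rest on 37 TNF+ and 44 TNF- cells.

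In lung, the same rule found 170 of 8342 kept TNF- barcodes (2.04%) and 761 of 11085 TNF+ barcodes (6.87%). Of the gated lung macrophages these were 14.2% of 1201 in TNF- and 15.4% of 4956 in TNF+, beside 10.2% and 61.0% in synovium. The limit on Acp5 and Ctsk had set aside 46 TNF- and 624 TNF+ lung cells, with median depths of 32098 and 41205.5 UMIs. Those cells are not among the gated lung macrophages, and their part in the lung shares was not tested. Spp1 stood at 372 against 273 CPM in TNF+ against TNF- lung cells, a log2 ratio of 0.45 (95% interval 0.35 to 0.54), and Lgals3 at 1716 against 1673 (0.04, 95% interval -0.00 to 0.07). Clec4e differed in lung as in synovium, at 166 against 19.2 (3.11), and St18 at 244 against 48.3 (2.34). Of 13848 genes, 1216 (8.78%) were higher in TNF+ lung cells and 1818 (13.1%) lower, with a median of -0.15. By list, glycolysis genes had 0 of 21 higher, 0 lower and a median of 0.19, against 19 of 23 higher in synovium. Complement genes had 9 of 16 higher, 2 lower and a median of 1.37, and NF-kB genes 13 of 20 higher, 0 lower and a median of 1.59. The difference between tissues was not tested, since each tissue had 1 library per genotype.

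TNF+ synovial and TNF+ lung cells of the same rule differed most in the marker Cxcl2, which was higher in synovium by a log2 ratio of 5.99 (95% interval 5.94 to 6.03), followed by Cd14 at 3.61 and Clec4e at 2.80. Of 14002 genes, 1002 (7.16%) were higher in synovium and 5739 (41%) lower, with a median of -0.74. Glycolysis genes stood against that shift, with 20 of 23 higher, 0 lower and a median of 1.81, as did iron genes, with 9 of 14 higher, 0 lower and a median of 2.24. Complement genes had 0 of 16 higher, 10 lower and a median of -1.78. The TNF+ lung cells were the deeper set, with a median of 25361 UMIs against 17269 in synovium. Over 5000 genes were found in 414 of 761 lung cells and 28 of 625 synovial ones. The part of depth in these counts was not tested.

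**Figure D5:**
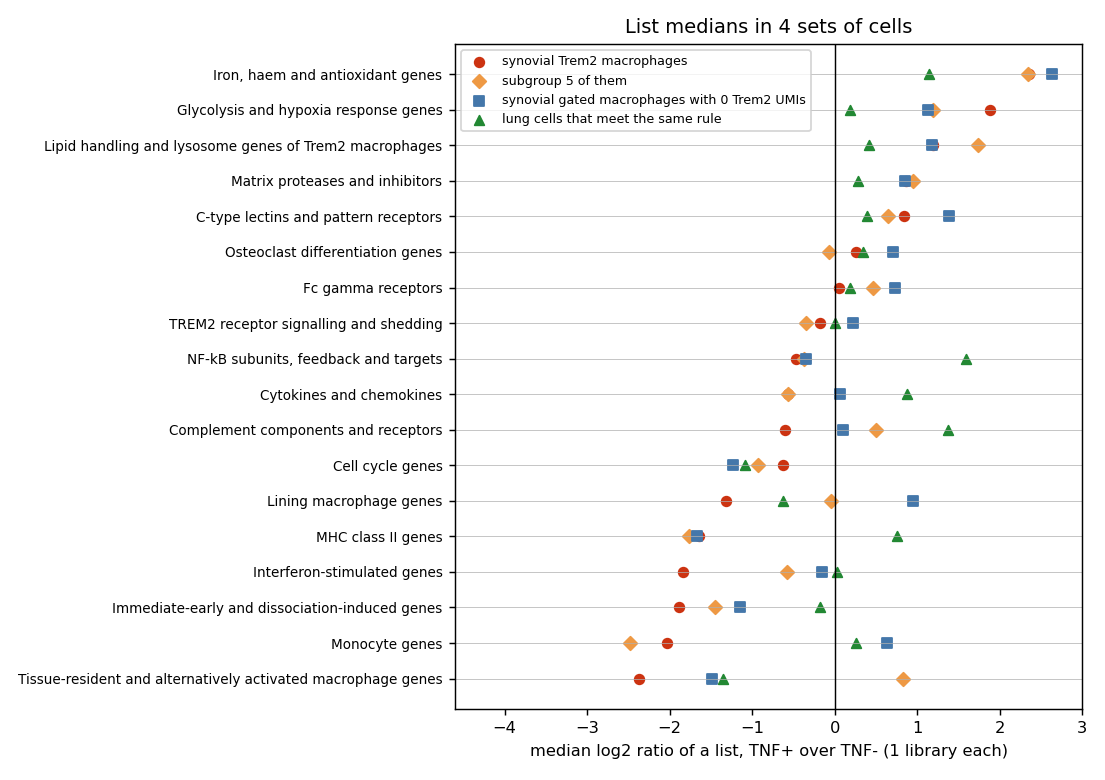
Points show the median log2 ratio of TNF+ over TNF- (x axis) of each gene list (y axis) in synovial Trem2 macrophages, in their subgroup 5, in synovial Trem2-0 macrophages and in lung cells that meet the same rule. Glycolysis genes stand at 1.88, 1.19, 1.14 and 0.19 in these 4 sets, and MHC class II genes at -1.65, -1.77, -1.66 and 0.76.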

How the data were processed

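Single-cell RNA was captured in droplets (10x Chromium) from live-sorted cells of pooled synovium and lung. The authors processed the reads with Cell Ranger 7.0.1 against mm10 and deposited filtered matrices of raw UMI counts for 32285 mouse genes in 4 libraries; 0 columns were left unmapped. The study's own filter also removed barcodes with over 5000 genes, which was not applied here and would remove 12 of 57 TNF- and 28 of 625 TNF+ Trem2 macrophages. Members, marker genes and the 18 gene lists were chosen with earlier results of these data known. Doublets were not removed in the values given, and removal by Scrublet (0.8% per 1000 barcodes) was tried as an alternative, which took out 8 TNF- and 12 TNF+ members.

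Raw counts were summed over the cells of a set and scaled to 1000000 UMIs of the set (CPM). Ratios carry conditional binomial intervals, levels Poisson intervals and shares Clopper-Pearson intervals, all at 95%. Calls needed a 2-fold difference and at least 20 UMIs over both sets, and a set at 0 was given a floor of 3 UMIs. Totals were 1396919 UMIs over the TNF- and 11673156 over the TNF+ members, so low genes were measured less precisely in TNF-. T-like cells held at least 2 UMIs of Cd3 genes.

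Genes named for a comparison were the 15 with the highest lower bounds and the 15 with the lowest upper bounds, with at least 100 UMIs and a UMI in at least 10% of cells of the higher set. Rule, mitochondrial, ribosomal, haemoglobin, predicted, X-inactivation and Y-linked genes were left out. The markers, Npy, St18 and up to 4 members of each list by ratio were added, and a few further members were chosen after their values were seen. Subgroups came from 2000 variable genes, 30 principal components, 20 neighbours and Leiden clustering at resolution 0.6. Python 3.11.15, numpy 2.4.6, scipy 1.17.1, pandas 2.3.3, scanpy 1.11.5 and matplotlib 3.10.9 were used, and the ratio step was tested on simulated data. Alternatives covered the barcode filters, the Trem2 minimum, thinning, doublets, other cell types' genes, shared barcodes, scaling and the gene minimum. Some single-gene values are not reported here.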

Additional observations from a re-analysis of the deposited data

Results flagged for a closer look

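Of 34 named genes with enough UMIs in lung, 4 were at least 2-fold lower in TNF+ than TNF- synovial Trem2 macrophages and at least 2-fold higher in TNF+ lung cells of the same rule. With 1 library per genotype and tissue, the difference between tissues was not tested. The log2 ratio of Ccl12, a monocyte-attracting chemokine, was -6.50 in synovium and 1.24 in lung, where it stood at 149 CPM in TNF+ and 62.9 in TNF-. In synovium 87.3% of its TNF- UMIs came from 1 cell. The ratios of Aff3, a nuclear protein of lymphoid cells, were -6.29 in synovium and 1.33 in lung. Those of Cd226, an activating receptor, were -5.84 and 2.83, and those of the lectin Cd209a were -5.17 and 3.35.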

How the results depend on the processing

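The member share kept its genotype order under every barcode filter, Trem2 minimum and depth setting tried. Of kept barcodes it was 1.6% in TNF- and 20.6% in TNF+ at a Trem2 minimum of 1 UMI, 0.527% and 15.8% at 3, and 0.5004% and 12.1% when 1 Trem2 UMI was required after thinning to 2000 UMIs. Of gated macrophages these shares were 18.9% and 70.3%, 6.25% and 53.8%, and 5.54% and 36.9%. A 10% mitochondrial limit gave 19.3% of kept TNF+ barcodes, and leaving out members that held other cell types' genes gave 0.633% of kept and 7.5% of gated TNF- barcodes. Counts of genes depended on the UMI minimum by construction. For TNF+ over TNF-, 2621 genes lower became 1737 with a minimum of 50 UMIs, 5776 with none and 1016 with thinned cells, and within subgroup 5 the counts were 684 higher and 1234 lower. For Trem2 against Trem2-0 macrophages of TNF+, the lower count was 1072, 3815 and 1000 under the same 3 settings, and with the thinned Trem2 rule 197 were higher and 1027 lower. In TNF-, the higher count was 525 with a minimum of 50, 2674 with none and 445 with thinned cells. There the lower count was 399 with a minimum of 50, 1191 under the thinned rule and 1119 without members holding other cell types' genes. Leaving out the cell with most UMIs of each gene, chosen after seeing the data, gave 510 higher and 1331 lower; the cause of these shifts was not tested. Of the list medians under the alternatives, 295 moved by less than 0.5 on the log2 scale and 28 moved by more. The resident list, at least 2-fold lower as summed, was at 0.82 in subgroup 5. Smaller medians also changed sign, those of the cell cycle, complement, TREM2 signalling, Fc gamma receptor and osteoclast lists. Of single-gene ratios over all alternatives, 1351 stayed within the main counting interval and 439 moved outside it. Of those of at least 2-fold, 2 changed sign, Ccl17 at 0.0941 with a Trem2 minimum of 1 and Pakap at 0.22 under the thinned rule. No paired analysis was possible because each group had 1 library. The limits are the lack of replicates, 57 TNF- cells, and pooled mice.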

Other observations

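The osteoclast-like cells set aside by the rule, 83 in TNF+ and 0 in TNF-, were compared with the TNF+ Trem2 macrophages of the same library. Of 11334 genes, 2071 (18.3%) were at least 2-fold higher in the osteoclast-like cells and 1663 (14.7%) lower, with a median log2 ratio of 0.19. The rule used Acp5 and Ctsk, and 13 of 16 genes of the osteoclast list were higher, with a median of 3.30. Cell cycle genes were higher in 13 of 16 cases with a median of 2.25. MHC class II genes were lower in 8 of 8 cases with a median of -3.66, and cytokine genes in 24 of 28 with a median of -2.37. The Trem2 macrophages had more Cd14 and Cxcl2, by log2 ratios of osteoclast-like cells over Trem2 macrophages of -3.07 and -2.88, whereas Npy stood at -0.20 (95% interval -0.55 to 0.14) and Trem2 at -0.62. The sets shared the library but no cell. The osteoclast-like cells were the deeper set, with a median of 38457 UMIs against 17269. Over 5000 genes were found in 55 of 83 osteoclast-like cells and 28 of 625 Trem2 macrophages. The part of depth or doublets in these ratios was not tested.

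Epithelial genes summed to 69.8 CPM in the TNF+ Trem2 macrophages, and 686 of those 815 UMIs came from 1 cell.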
